A study of Mus musculus with 9 samples.

Results

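Nuclear pore and nuclear transport genes were examined in mouse N2A cells depleted of EXOSC3 or DDX1. The genes were chosen by symbol alone: Nup, Ipo, Xpo, Kpna, Kpnb, Tnpo or Thoc followed by a number, together with Xpot. This gave 51 of the 24318 genes in each of the 2 expression tables. The rule itself uses no measured value, although it was set with earlier results of these data known. N2A is a mouse neuroblastoma line, labelled as wild type, and all 3 groups were transfected with siRNA by lipofection in antibiotic-free medium. The siScramble group received a negative control siRNA, the siEXOSC3 group an siRNA against Exosc3, which encodes a structural subunit of the RNA exosome, and the siDDX1 group an siRNA against Ddx1, which encodes a DEAD-box RNA helicase. Each group had 3 libraries from separate plates of this 1 line, so the spread between libraries is that between plates. RNA was depleted of ribosomal RNA and sequenced without strand information, and the values are FPKM, fragments scaled for transcript length and library size. The time between transfection and harvest, and which siRNA was used for the sequenced cells, are not given in the sources used here.

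Nuclear pores are large rings of nucleoporins that span the nuclear envelope. A Y-shaped complex and an inner ring form the scaffold, nucleoporins with phenylalanine-glycine repeats fill the channel, and further nucleoporins form the cytoplasmic face and the nuclear basket. Importins and transportins carry cargo into the nucleus and exportins carry it out, with the small GTPase Ran setting the direction, while the THO complex joins transcription to the packaging and export of mRNA.

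Both depletions were seen in the targeted transcripts. Exosc3 was left at 15.5% ± 1.90 (SD, n = 3) of siScramble in siEXOSC3, and Ddx1 at 24.4% ± 2.99 (SD, n = 3) in siDDX1. FPKM holds no read numbers, so the absolute depth is unknown. The depth relative to siScramble replicate 1, read from the steps between low values, was 0.827 to 0.979 in the siEXOSC3 libraries and 0.975 to 1.20 in the siDDX1 libraries. Of 11 neuronal and neuroblastoma markers, 8 had a mean of at least 1 FPKM in siScramble, and Nefl and Nefm stayed under 1 in all groups. The summed level of the 11 was 766 to 776 FPKM in siScramble and 1086 to 1189 FPKM in siEXOSC3, and, beside siDDX1, 759.8 to 767 FPKM in siScramble and 763 to 916 FPKM in siDDX1. Of 11 markers of fibroblasts, glia and blood cells, the sum was at most 4.48 FPKM in any library, and Col1a2, Col3a1 and Aqp4 were listed at 0 in every library.

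Nearly all of the transport genes were expressed. A mean of at least 1 FPKM over the 6 libraries of a table, the limit for testing, was reached by 47 of the 51 in both tables. In siScramble the median of the 47 was 38.7 FPKM, and that of all 11242 genes tested in the siEXOSC3 table was 14.1 FPKM. Kpna2, an importin alpha that binds nuclear localization signals, had the highest level, at 399 ± 11.9 FPKM (SD, n = 3). It was followed by Kpnb1, the importin beta that carries importin alpha through the pore, at 227 ± 3.003 FPKM (SD, n = 3). Tnpo1, the receptor for RNA-binding proteins such as hnRNPs, stood at 192 ± 5.47 FPKM (SD, n = 3), and Xpo1, the exportin for leucine-rich export signals, at 179 ± 8.49 FPKM (SD, n = 3). Xpot, the exportin of tRNA, and Ipo7, an import receptor of ribosomal proteins, completed the 6 genes above 100 FPKM. Ipo13 was the lowest of those tested, at 8.72 ± 0.391 FPKM (SD, n = 3).

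The 4 genes under the limit were Nup210l, Kpna7, Nup62cl and the readthrough gene Nup62-il4i1. Nup62cl was listed at 0 in every library, and Kpna7, an importin alpha of oocytes and early embryos, was at most 0.0236 FPKM. Nup62-il4i1 was between 0 and 0.546 FPKM. Nup210l, a relative of the pore membrane protein Nup210, was low but measurable, at 0.700, 0.834 and 0.696 FPKM in siScramble and 0.672, 0.404 and 0.418 FPKM in siEXOSC3. In the other table it was 0.695, 0.828 and 0.688 FPKM in siScramble and 0.387, 0.468 and 0.369 FPKM in siDDX1. Its knockdown values lay below the siScramble values in both tables, and it was not tested in the main comparison.

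Depletion of EXOSC3 lowered 13 of the 47 transport genes and raised 0 of them, with limma's test on log2(FPKM + 1) and a Benjamini-Hochberg adjusted p under 0.05 over all genes tested. Among all 11242 genes, 15.7% were decreased and 16.7% were increased by the same rule. Among the transport genes 27.7% were decreased, and at an unadjusted p under 0.05, 21 had a negative and 1 a positive change, against 23.4% and 22.0% of all genes. The 13 were Nup35, Thoc1, Nup133, Xpot, Nup50, Kpna1, Kpna3, Nup153, Kpna2, Nup214, Tnpo1, Nup98 and Nup155, with log2 fold changes from -0.72 to -0.20. All 3 siEXOSC3 values lay below all 3 siScramble values in 24 transport genes, against 25.9% of all genes, and above them in 2, Ipo4 and Thoc6, against 23.8% of all genes. The log2 fold change was negative in 42 of the 47, against 51.9% of all genes, and its median was -0.16, beside a median of -0.014 over all genes tested. A lower transcript level in these bulk samples cannot be told apart from fewer cells that express the gene. The neuronal markers given above moved in the same libraries, with 7 of the 11 increased in siEXOSC3, and their part in the transport gene values was not tested.

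**Figure D1:**
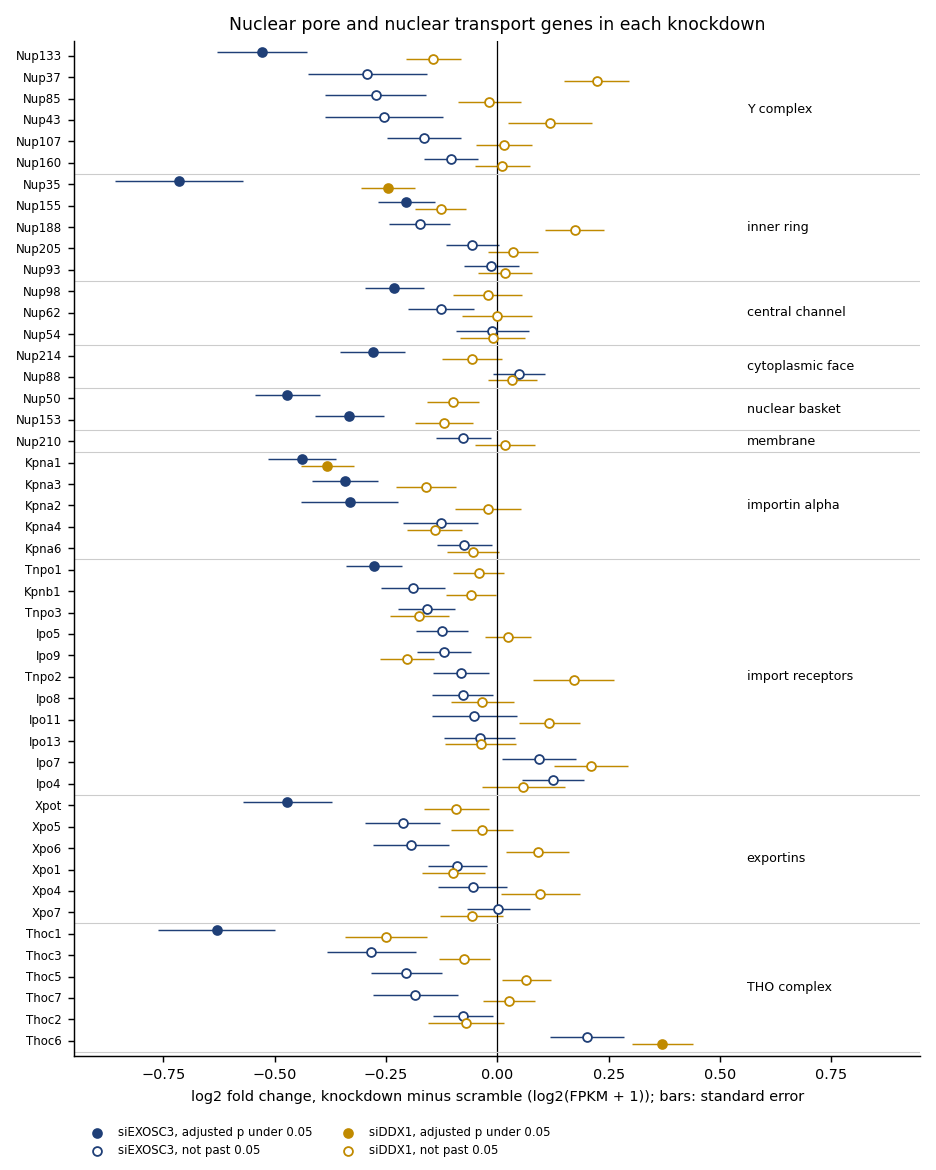
Log2 fold change (knockdown minus siScramble, on log2(FPKM + 1), horizontal axis) of the 47 tested transport genes, grouped by role, in siEXOSC3 (blue) and siDDX1 (gold), each from its own table with the same 3 siScramble libraries. Bars are standard errors and filled points have an adjusted p under 0.05; 13 blue points to the left of 0 are filled, as are 2 gold points to the left (Kpna1, Nup35) and 1 to the right (Thoc6).

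**Figure D2:**
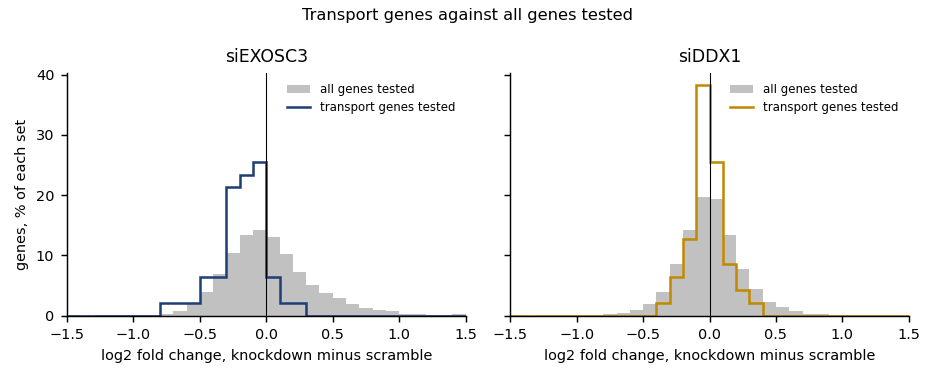
Distribution of log2 fold changes (horizontal axis, knockdown minus siScramble) as the percent of genes in each bin, for all genes tested (grey) and the 47 transport genes (line), with values beyond 1.5 in size placed in the end bins. In siEXOSC3 the line lies mostly left of 0, with a median of -0.16, and in siDDX1 it is centred near 0, with a median of -0.022.

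Among scaffold nucleoporins, Nup35 and Nup133 had the lowest values relative to siScramble. Nup35, a small inner ring protein that contacts the membrane, is on chromosome 2 from 80457393 to 80499063 (NCBIM37, plus strand). Its siScramble libraries held 22.2, 21.4 and 22.8 FPKM and its siEXOSC3 libraries 13.7, 16.2 and 10.1 FPKM. The groups did not overlap, and replicate 3 of siEXOSC3 held less than 50% of the siScramble mean of 22.2 FPKM. The log2 fold change was -0.72 (SE 0.143, adjusted p = 0.00849). Nup133, a Y complex subunit on chromosome 8 from 126421023 to 126473165 (minus strand), held 20.6, 19.4 and 19.9 FPKM in siScramble and 13.3, 15.8 and 11.8 FPKM in siEXOSC3. Here too every siEXOSC3 library was below every siScramble library, and the log2 fold change was -0.53 (SE 0.101, adjusted p = 0.00719).

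Of the 6 Y complex genes with a Nup symbol, Nup133 was the 1 that passed the test, beside 15.7% of all genes, and all 6 had negative values, with a median log2 fold change of -0.26. Of the complex's genes with other symbols, Ahctf1 was decreased (log2 fold change -0.43, adjusted p = 0.00428), and Sec13 and Seh1l, at -0.12 and 0.01, did not pass. Nup37, Nup85, Nup43 and Nup107 overlapped siScramble through siEXOSC3 replicate 2, whose values were above the lowest siScramble value. For Nup37 the siScramble values were 46.5, 43.7 and 41.0 FPKM and the siEXOSC3 values were 36.3, 43.1 and 28.5 FPKM, a log2 fold change of -0.29 with an adjusted p of 0.122. It was -0.43 without siEXOSC3 replicate 2 and -0.14 without replicate 3. In the fit without replicate 2, Nup37, Nup85, Nup43 and Nup107 were decreased together with Nup133, beside 22.3% of all genes. In the inner ring, Nup155 was decreased from 38.7 ± 1.16 to 33.5 ± 1.53 FPKM (SD, n = 3 each), with a log2 fold change of -0.20 and an adjusted p of 0.0407. The large inner ring proteins Nup188, Nup205 and Nup93 did not pass the test, with log2 fold changes of -0.17, -0.06 and -0.01.

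Both of the 2 nuclear basket genes with a Nup symbol were decreased in siEXOSC3, beside 15.7% of all genes, while the basket protein Tpr, which carries another symbol, was not (log2 fold change -0.10, adjusted p = 0.229). Nup50, which binds importin alpha and helps release its cargo, lies on chromosome 15 from 84753831 to 84773385 (plus strand). It held 49.7, 49.1 and 46.6 FPKM in siScramble and 33.4, 37.8 and 33.1 FPKM in siEXOSC3, with a log2 fold change of -0.47 (SE 0.073, adjusted p = 0.00339). This was the smallest adjusted p among the transport genes. Nup153, which anchors the basket, held 41.3, 37.7 and 39.8 FPKM in siScramble and 30.3, 34.2 and 29.4 FPKM in siEXOSC3. Its groups were separate as well, with a log2 fold change of -0.33 (SE 0.077, adjusted p = 0.0139).

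Of the remaining genes tested with a Nup symbol, 1 of 3 central channel, 1 of 2 cytoplasmic face and 0 of 1 membrane genes were decreased. The share of all genes decreased in siEXOSC3 was 15.7%. Among pore genes with other symbols, Gle1 and Ranbp2 of the cytoplasmic face and the membrane protein Pom121 were decreased as well, with log2 fold changes of -0.41, -0.19 and -0.38 (adjusted p = 0.00764, 0.0419 and 0.0114). Rae1 was also decreased (-0.24, adjusted p = 0.0383). Ndc1, Nupl1, Nupl2 and Aaas, at -0.41, -0.15, -0.02 and -0.02, did not pass (adjusted p = 0.0505, 0.170, 0.908 and 0.834). In all, 5 of the 12 pore genes with other symbols were decreased, beside 15.7% of all genes. Nup98, a repeat-bearing channel protein, held 47.7, 48.2 and 43.9 FPKM in siScramble and 38.8, 38.6 and 41.2 FPKM in siEXOSC3 (log2 fold change -0.23, adjusted p = 0.0294). Nup214, which docks export complexes on the cytoplasmic face, held 13.7, 13.9 and 14.7 FPKM in siScramble and 10.7, 12.1 and 11.5 FPKM in siEXOSC3 (log2 fold change -0.28, adjusted p = 0.0216). All siEXOSC3 values of both genes lay below siScramble. Nup88, the partner of Nup214 on the cytoplasmic face, had 81.8 ± 2.17 FPKM in siScramble and 84.6 ± 2.01 FPKM in siEXOSC3 (SD, n = 3 each), and did not pass. The channel proteins Nup62 and Nup54 had log2 fold changes of -0.13 and -0.01, and the membrane protein Nup210 had -0.08, none of them past the threshold.

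Importin alpha genes encode the adaptors that recognise classical nuclear localization signals. In siEXOSC3, 3 of the 5 tested were decreased, against 15.7% of all genes, and 4 of the 5 had all libraries below siScramble, against 25.9%. Kpna1, on chromosome 16 from 35978836 to 36037217 (plus strand), held 31.7, 31.6 and 29.9 FPKM in siScramble and 23.9, 23.6 and 20.6 FPKM in siEXOSC3. The highest siEXOSC3 library was thus well below the lowest siScramble library, and the log2 fold change was -0.44 (SE 0.076, adjusted p = 0.00506). Kpna3 held 33.7, 32.2 and 29.3 FPKM in siScramble and 24.9, 25.8 and 23.7 FPKM in siEXOSC3, a log2 fold change of -0.34 (SE 0.074, adjusted p = 0.0109). Kpna2 held 408, 402 and 385 FPKM in siScramble and 319, 369 and 269 FPKM in siEXOSC3. These siEXOSC3 libraries were far apart, and the log2 fold change of -0.33 (SE 0.109) was close to the threshold, with an adjusted p of 0.0476. Kpna4 and Kpna6 had log2 fold changes of -0.13 and -0.07 and were not called.

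Import receptors of the importin beta family carry cargo directly or with an adaptor, and 1 of 11 was decreased in siEXOSC3, under the 15.7% of all genes, with a median log2 fold change of -0.08. That gene was Tnpo1, at 199, 189.7 and 189 FPKM in siScramble and 161, 163 and 152 FPKM in siEXOSC3. Its libraries were close together within each group, and the log2 fold change was -0.28 (SE 0.062, adjusted p = 0.0128). Kpnb1 held 229.96, 224 and 227 FPKM in siScramble and 195, 217 and 187 FPKM in siEXOSC3, all below siScramble, with a log2 fold change of -0.19 that did not pass (adjusted p = 0.0751). Ipo4, which imports histones and ribosomal proteins, had siEXOSC3 values above siScramble without passing, at a log2 fold change of 0.12 (adjusted p = 0.193).

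Among the 6 exportin genes with an Xpo symbol, 1 (16.7%) was decreased in siEXOSC3, beside 15.7% of all genes. That gene was Xpot. It is on chromosome 10 from 121024436 to 121063372 (minus strand), and held 136, 129.8 and 131 FPKM in siScramble and 96.0, 109 and 81.7 FPKM in siEXOSC3. All siEXOSC3 libraries were below siScramble and differed among themselves more than the siScramble libraries did, and the log2 fold change was -0.47 (SE 0.101, adjusted p = 0.0105). Xpo1, the general protein exportin, held 179 ± 8.49 FPKM in siScramble and 168 ± 5.72 FPKM in siEXOSC3 (SD, n = 3 each), and its groups overlapped. Xpo5, which exports precursors of microRNAs, had a log2 fold change of -0.21 (adjusted p = 0.0826), and Xpo7 had 0.00.

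The THO complex held the transport gene with the second lowest fold change and the gene with the highest. Thoc1, on chromosome 18, held 19.8, 18.8 and 18.5 FPKM in siScramble and 12.4, 14.5 and 9.44 FPKM in siEXOSC3. The groups were separate, and the log2 fold change was -0.63 (SE 0.131, adjusted p = 0.00969). Thoc6, on chromosome 17 from 23805581 to 23810849 (minus strand), held 11.05, 11.6 and 10.4 FPKM in siScramble and 12.4, 11.9 and 14.1 FPKM in siEXOSC3. These values lay above siScramble by a log2 fold change of 0.20, which did not pass (adjusted p = 0.0952). Thoc3, Thoc5, Thoc7 and Thoc2 had log2 fold changes of -0.28, -0.20, -0.18 and -0.08, and none passed. Of the 6 THO genes tested, 1 (16.7%) was thus decreased in siEXOSC3, beside 15.7% of all genes.

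**Figure D3:**
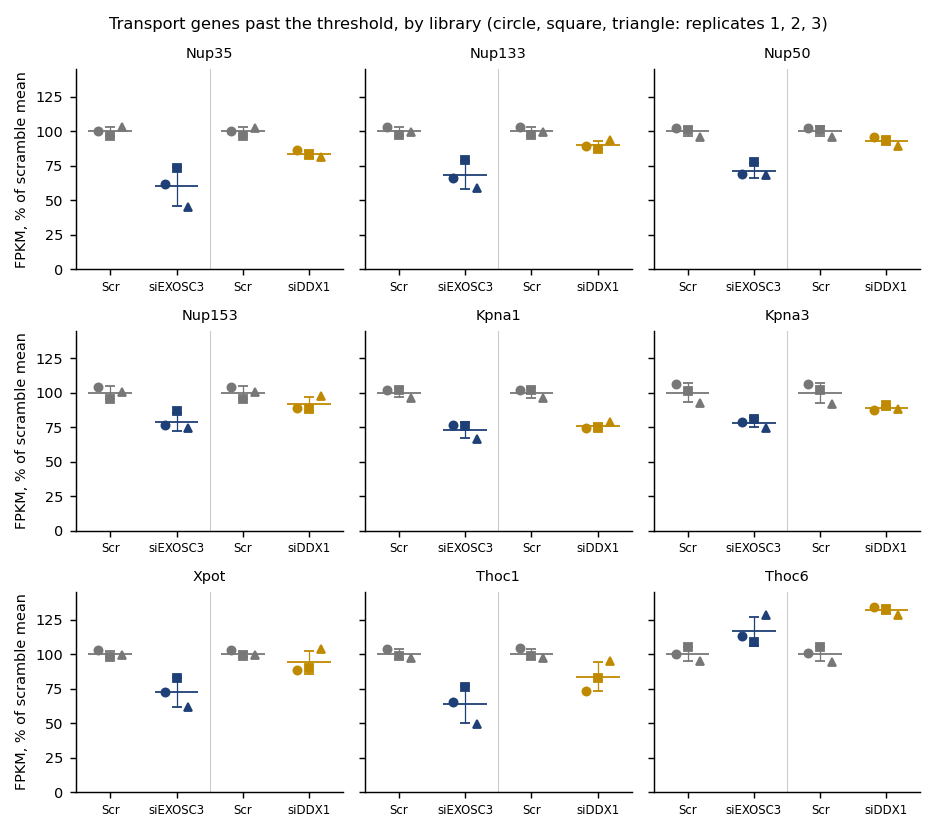
FPKM of 9 transport genes past the threshold in at least 1 knockdown, as a percent of the siScramble mean of the same table (vertical axis from 0), for each library. Lines are means, bars are SD (n = 3), and circles, squares and triangles are replicates 1, 2 and 3; the 3 siEXOSC3 libraries of every gene other than Thoc6 lie below siScramble, and all 3 siDDX1 libraries of Thoc6 lie above it.

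The 3 siEXOSC3 libraries differed in how low the transport genes were. Replicate 3 was the lowest of its group in 30 of the 47 genes and replicate 2 the highest in 34. Among the 13 decreased genes these counts were 11 and 11. The median log2 difference of the 47 from the siScramble mean was -0.18 in replicate 1, -0.081 in replicate 2 and -0.19 in replicate 3. The Exosc3 transcript left was 15.5, 17.4 and 13.6% of siScramble in the same order, so the library with the most remaining Exosc3 was also the one with the highest transport gene values. Whether the level of depletion bears on the transport genes was not tested. Without siEXOSC3 replicate 2, 23 transport genes were decreased and 1, Thoc6, was increased, while 22.3% of all genes were decreased and 21.2% increased. Without siScramble replicate 1, 6 were decreased, and without siEXOSC3 replicate 1, 8 were, with 5.18% and 7.72% of all genes decreased. Nup35, Thoc1, Nup133, Xpot, Nup50 and Kpna1 were decreased under all 13 alternatives run, which include leaving out each library. Kpna3 and Tnpo1 were past the threshold in 12 of the 13, Nup153 in 10, Nup98 in 9, Nup214 in 8, Nup155 in 5 and Kpna2 in 4. The log2 fold change of Kpna2 was -0.22 without siEXOSC3 replicate 3 (adjusted p = 0.0730).

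**Figure D4:**
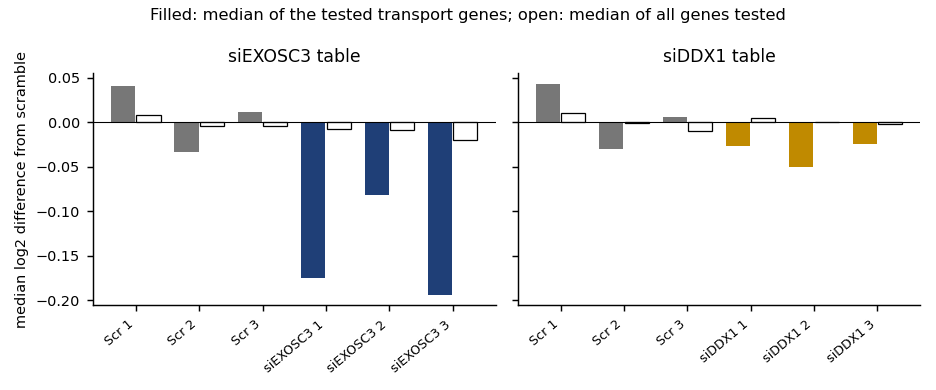
Median log2 difference from siScramble (vertical axis) in each library, for the 47 transport genes (filled) and all genes tested (open); a siScramble library is set against the mean of the other siScramble libraries, a knockdown library against the siScramble mean. The siEXOSC3 libraries stand at -0.18, -0.081 and -0.19 for the transport genes, and the siDDX1 libraries at -0.027, -0.050 and -0.024.

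Depletion of DDX1 changed 3 of the 47 transport genes, with 1 increased and 2 decreased. Among all 11104 genes tested in that table, 5.61% were increased and 5.03% decreased. The siDDX1 values lay above all siScramble values in 4 transport genes, Thoc6, Ipo7, Nup188 and Nup37, against 17.0% of all genes, and below them in 11, against 17.8% of all genes. The median log2 fold change of the 47 was -0.022, beside -0.00059 over all genes tested, and 28 of the 47 were negative, against 50.1% of all genes. The comparison uses the same 3 siScramble libraries as that of siEXOSC3, so the values of the 2 knockdowns are given side by side and the difference between them was not tested.

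Thoc6 was the transport gene increased in siDDX1. It held 10.96, 11.5 and 10.3 FPKM in siScramble and 14.6, 14.5 and 14.04 FPKM in siDDX1. The siDDX1 libraries were close to each other and all above siScramble, at 132% ± 2.88 (SD, n = 3) of the siScramble mean, with a log2 fold change of 0.37 (SE 0.068, adjusted p = 0.0159). Kpna1 was decreased, from 31.5, 31.4 and 29.5 FPKM in siScramble to 23.0, 23.0 and 24.2 FPKM in siDDX1, a log2 fold change of -0.38 (SE 0.059, adjusted p = 0.01005). Nup35 was the other decreased gene, from 22.04, 21.2 and 22.6 FPKM in siScramble to 19.1, 18.2 and 17.8 FPKM in siDDX1. Its groups did not overlap, and the log2 fold change was -0.25 (SE 0.061, adjusted p = 0.0419). Kpna1 and Nup35 were the 2 transport genes called in both knockdowns, with Kpna1 at 73.1% ± 5.85 of siScramble in siEXOSC3 and 76.0% ± 2.23 in siDDX1, and Nup35 at 60.2% ± 14.02 and 83.7% ± 2.87 (SD, n = 3 each).

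The other genes that were lowest in siEXOSC3 did not pass in siDDX1 with all libraries. Thoc1 held 13.9, 15.6 and 17.9 FPKM in siDDX1 against 19.6, 18.6 and 18.3 FPKM in siScramble, all below but widely spread (log2 fold change -0.25, adjusted p = 0.112). Nup133, Nup50 and Xpot had log2 fold changes of -0.14, -0.10 and -0.09 in siDDX1, with adjusted p-values of 0.158, 0.285 and 0.428. All 5 tested importin alpha genes had negative values in siDDX1, 4 with all libraries below siScramble, against 17.8% of all genes, and a median log2 fold change of -0.14. Of these Kpna1 was called. Kpna2, the gene with the highest level, had 395 ± 12.6 FPKM in siScramble and 389.8 ± 26.9 FPKM in siDDX1 (SD, n = 3 each), and Xpo1 had 178 ± 8.78 and 166 ± 10.1 FPKM (SD, n = 3 each), neither past the threshold. Nup37, which of the 6 Y complex genes with a Nup symbol differed most in siDDX1, held 46.1, 43.3 and 40.5 FPKM in siScramble and 51.0, 47.3 and 53.9 FPKM in siDDX1, with a log2 fold change of 0.22 that did not pass (adjusted p = 0.0852).

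The calls in siDDX1 changed when single libraries were left out. Without siScramble replicate 1, 0 transport genes were called, and 0.549% of all genes were decreased and 0.928% increased. Kpna1 kept its log2 fold change between -0.41 and -0.36 over all alternatives, with adjusted p-values from 0.00169 to 0.0654. Without siScramble replicate 3, siDDX1 replicate 1 or siDDX1 replicate 2, Kpna1 was the 1 gene decreased and 0 were increased, while 0.603, 1.90 and 1.46% of all genes were decreased and 0.865, 2.06 and 1.53% increased. Without siScramble replicate 2, Kpna1 was decreased and Thoc6 increased, beside 2.13% and 2.57% of all genes. Without siDDX1 replicate 3, Kpna1, Kpna4, Nup35, Thoc1, Tnpo3 and Xpot (6 genes) were decreased and Ipo7, Nup188, Thoc6 and Tnpo2 (4 genes) were increased, while 15.4% of all genes were decreased and 16.4% increased. In that fit the log2 fold change was -0.34 for Thoc1 and -0.16 for Xpot, with adjusted p-values of 0.00758 and 0.04998, and over all alternatives these p-values reached 0.297 and 0.724. Nup35 passed in siDDX1 in 5 of the 13 alternatives, with adjusted p-values from 0.0248 to 0.152, and Thoc6 in 9, from 0.00401 to 0.0816.

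Upstream sequences are shown for Nup50, Nup133 and Xpot, decreased in siEXOSC3 under every alternative, and for Thoc6, increased in siDDX1, as promoters of the genes these results turn on. Each is the 150 bases before the annotated start, 5′ to 3′ on the gene's strand, from RefSeq on GRCm38.p6, a later build than that of the expression tables. Capitals mark matches, on either strand, to any of 7 short motifs: CCAAT (NF-Y), GGGCGG (GC box), CCGGAAG (ETS), GCATGCGC (NRF1 core), CACGTG (E-box), GCGGGAA (E2F) and AAGATGG (YY1 core).
Nup50, chr15:84923278-84923427, plus strand: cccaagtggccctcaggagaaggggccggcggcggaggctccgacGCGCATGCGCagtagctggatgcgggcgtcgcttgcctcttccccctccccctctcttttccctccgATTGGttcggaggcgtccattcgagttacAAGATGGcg
Nup133, chr8:123949266-123949415, minus strand: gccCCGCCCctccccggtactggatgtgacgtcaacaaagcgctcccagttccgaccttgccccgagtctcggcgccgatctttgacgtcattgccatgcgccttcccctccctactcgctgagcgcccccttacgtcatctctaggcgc
Xpot, chr10:121626333-121626482, minus strand: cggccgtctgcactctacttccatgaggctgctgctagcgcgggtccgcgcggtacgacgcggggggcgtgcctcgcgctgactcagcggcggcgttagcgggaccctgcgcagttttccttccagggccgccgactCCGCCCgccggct
Thoc6, chr17:23673878-23674027, minus strand: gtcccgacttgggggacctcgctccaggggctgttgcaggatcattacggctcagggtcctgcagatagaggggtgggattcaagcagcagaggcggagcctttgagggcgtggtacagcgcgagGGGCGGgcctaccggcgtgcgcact
The Nup50 stretch held 2 overlapping matches to the NRF1 core, 1 on each strand, then a CCAAT box on the reverse strand and the YY1 core. The stretches of Nup133, Xpot and Thoc6 each held 1 GC box, near the upstream end in Nup133 and near the start in Xpot and Thoc6. In the whole 250 upstream bases, a GC box was found in 27 of the 39 transport genes that had a window (69.2%), in 65.8% of the 8577 tested genes with a window and in 35.3% of all genes with a window. The CCAAT box was in 20 of the 39 (51.3%), against 41.1% and 37.5% of the same sets, and the NRF1 core in 4 (10.3%), against 5.61% and 2.56%. Of the 13 genes decreased in siEXOSC3, 9 had a window, and 8 of these held a GC box and 5 a CCAAT box. These matches describe the letters of the windows and say nothing of binding. No window was found for Nup35, Thoc1, Kpna1 or Kpna3.

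Some transport genes overlap other genes, and the libraries were nondirectional. In GENCODE vM1 on NCBIM37, 49 of the 51 genes had a single position, on 17 chromosomes, and 17 of them overlapped another gene listed in the tables. Nup35 shares 15126 bases, 36.3% of its span, with Dusp19 on the same strand. Dusp19 was increased in both knockdowns, from 5.06 ± 0.387 to 7.03 ± 0.749 FPKM in siEXOSC3 and from 5.01 ± 0.394 to 7.65 ± 1.16 FPKM in siDDX1 (SD, n = 3 each), while Nup35 was decreased. Nup188 shares 25.4% of its span with Phyhd1 on the same strand, which was increased in both knockdowns with log2 fold changes of 0.64 and 0.88. Nup43 shares 100% of its 11379 bases with Pcmt1 on the opposite strand. Pcmt1 had log2 fold changes of -0.20 in siEXOSC3 and -0.16 in siDDX1, where Nup43 had -0.25 and 0.12, none past the threshold. Nup62 shares 98.1% of its span with Il4i1 on the same strand, which was too low to be tested. Thoc1 overlaps Usp14 by 53 bases and Thoc6 overlaps Hcfc1r1 by 275 bases, in both cases on opposite strands. Usp14 was itself decreased in siEXOSC3, with a log2 fold change of -0.20 (adjusted p = 0.0366), beside the decrease of Thoc1. In siDDX1, Hcfc1r1 had a log2 fold change of -0.29 that did not pass (adjusted p = 0.179), beside the increase of Thoc6. How reads in shared stretches were assigned is not given in the sources used here, and their part in these values was not tested.

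Ipo7 is the host of a small nucleolar RNA gene, Snora23, which guides pseudouridylation of ribosomal RNA and covers 184 bases of the Ipo7 span of 36690 bases. Ipo7 itself held 121, 125 and 108 FPKM in siScramble and 124, 118 and 137 FPKM in siEXOSC3, with overlapping groups and a log2 fold change of 0.09 (adjusted p = 0.410). Snora23 held 30.4, 25.2 and 69.8 FPKM in siScramble and 105, 263 and 221 FPKM in siEXOSC3, an increase with a log2 fold change of 2.24 (adjusted p = 0.00645). All siEXOSC3 values listed for Snora23 were thus above siScramble, while those of its host were not. Snora23 lies within Ipo7 on the same strand, so its values may include fragments of unspliced Ipo7 RNA, which was not tested. In siDDX1, Ipo7 held 134, 147 and 125 FPKM against 120.5, 124 and 107 FPKM in siScramble, and Snora23 held 55.98, 92.4 and 133 FPKM against 30.2, 25.0 and 69.0 FPKM. Neither passed in siDDX1, with log2 fold changes of 0.21 (adjusted p = 0.134) and 1.22 (adjusted p = 0.0836). Ipo7 passed there in 2 of the 13 alternatives, the replicate block (adjusted p = 0.0371) and the fit without siDDX1 replicate 3 (adjusted p = 0.0265), with adjusted p-values up to 0.361 in the others. By name, Snora23 was the 1 snoRNA gene within a transport gene that the tables list, among 5 transport genes that overlap a snoRNA gene in the annotation.

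**Figure D5:**
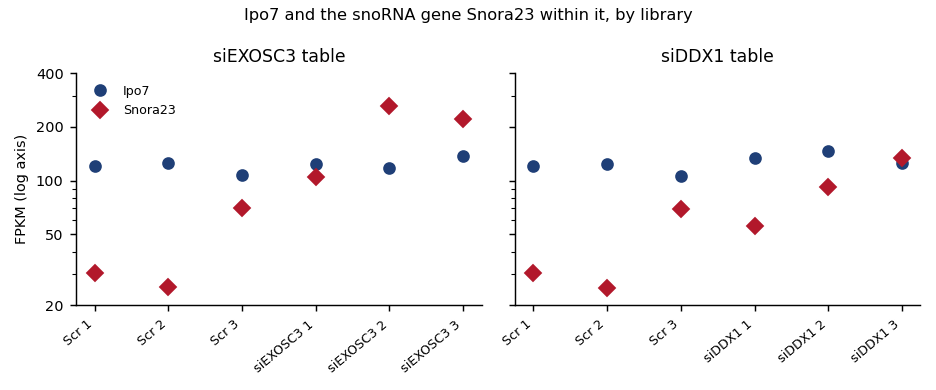
FPKM (log axis) of the import receptor gene Ipo7 (circles) and the snoRNA gene Snora23 within it (diamonds) in each library of the 2 tables. In the siEXOSC3 table Snora23 lies at 25.2 to 69.8 FPKM in siScramble and 105 to 263 FPKM in siEXOSC3, while Ipo7 lies between 107 and 147 FPKM in all libraries of both tables.

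A further 37 genes of the pathway that carry other symbols were also examined, and all 37 were tested. In siEXOSC3, 13 of them were decreased and 0 increased, against 15.7% and 16.7% of all genes, with a median log2 fold change of -0.17. At an unadjusted p under 0.05, 18 were negative and 0 positive, against 23.4% and 22.0% of all genes. Rcc1, the exchange factor that loads Ran with GTP, held 34.8, 31.0 and 33.7 FPKM in siScramble and 22.3, 27.6 and 15.4 FPKM in siEXOSC3 (log2 fold change -0.62, adjusted p = 0.0275), and passed in 8 of the 13 alternatives, with log2 fold changes of -0.80 without siEXOSC3 replicate 2 and -0.40 without replicate 3. The Ran-binding export cofactor Ranbp3 fell from 29.8 ± 0.359 to 20.9 ± 1.90 FPKM (SD, n = 3 each), with an adjusted p of 0.00369. For mRNA export, the helicase Ddx39 fell from 93.9 ± 2.27 to 59.0 ± 9.93 FPKM and the adaptor Alyref from 159 ± 9.14 to 114 ± 16.1 FPKM (SD, n = 3 each), with adjusted p-values of 0.00472 and 0.0114. By role, 5 of 12 other pore proteins, 3 of 7 Ran cycle genes, 1 of 2 other receptors and 4 of 16 mRNA export genes were decreased, against the same 15.7% of all genes. In siDDX1, 1 of the 37 was decreased and 0 increased, against 5.03% and 5.61% of all genes, with 8 negative and 2 positive at an unadjusted p under 0.05, where all genes gave 15.0% and 15.1%. That gene was Cse1l, which returns importin alpha to the cytoplasm, at 56.5, 49.9 and 55.2 FPKM in siScramble and 40.5, 42.0 and 46.7 FPKM in siDDX1 (log2 fold change -0.32, adjusted p = 0.0366). It was also among the 13 decreased in siEXOSC3, with a log2 fold change of -0.36 (adjusted p = 0.0480), and it passed in 4 of the 13 alternatives in siEXOSC3 and 6 in siDDX1. Without siScramble replicate 1 or 3, 5 of the 37 were decreased in siEXOSC3, without siScramble replicate 2, 6, and without siEXOSC3 replicate 1, 7, while 5.18 to 8.28% of all genes were decreased in these fits. In siDDX1 the count was 0 without any 1 of the siScramble libraries or of siDDX1 replicates 1 and 2, fits in which 0.549 to 2.13% of all genes were decreased. It was 6 without siDDX1 replicate 3, when 1 was also increased, and 15.4% of all genes were decreased and 16.4% increased.

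The length, base composition and level of the transport genes were set beside their changes as a description across genes, which are not independent. Their longest coding transcripts had a median of 4591 bases and 47.0% GC, against 3013 bases and 50.4% GC over the 10102 tested genes with a value in the siEXOSC3 table. Over the 47 transport genes, Spearman's rho of the log2 fold change was 0.045 with length and 0.18 with GC content in siEXOSC3. All genes gave -0.053 and 0.17 there. In siDDX1 rho over the transport genes was -0.39 with length and 0.32 with GC content, where all genes gave -0.15 and 0.22. Mean log2(FPKM + 1) in the siEXOSC3 table had a median of 5.18 over the transport genes and 3.90 over all genes tested. Its rho with the log2 fold change was -0.074 and -0.15. For transport genes the median replicate SD on that scale was 0.049 in siScramble and 0.095 in siEXOSC3, against 0.079 and 0.12 over all genes. The shares of all genes were not matched for level or spread.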

How the data were processed

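Per the submitters' processing notes, reads were aligned to mm9 with TopHat2 version 2.1.0, sorted with SAMtools, and compared with Cuffdiff version 2.2.1. The authors deposited FPKM per gene and library in 2 tables, each with 1 knockdown and the 3 siScramble libraries. The annotation and library normalization are not given in the sources used here. A siScramble library differed between tables by a nearly constant factor, so tests stayed within a table, and 0 columns were left out. The members and gene lists were chosen with earlier results of these data known.

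From the deposited FPKM, log2(FPKM + 1) of genes with a mean of at least 1 FPKM was fitted in R 4.3.3 with limma 3.58.1 (eBayes with trend), two-sided, with Benjamini-Hochberg adjustment over all genes tested and a threshold of 0.05. With this pseudocount the fold change of a low gene is understated. An exact permutation test of 3 against 3 libraries cannot go below p = 0.1. The fit was tested on simulated data. Genes named were the depleted genes, the 8 largest rises and falls past the threshold without overlap, those called in both knockdowns, the largest change in each of 10 role groups, and at most 4 related genes per direction. The others were named after their values were seen, among them Kpna2, Nup155 and Nup188, as were the genes overlapping members.

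Alternatives were a pseudocount of 0.1, no filter, a mean of at least 5 FPKM, quantile normalization, median centring, no trend, the replicate number as a block, and leaving out each library. Deviations of same-numbered libraries correlated at 0.035, -0.31 and -0.13 in siEXOSC3 and -0.012, 0.38 and 0.37 in siDDX1. Across replicates 2 and 3, the unlike-numbered pairs gave 0.20 and 0.26 in siEXOSC3 and -0.38 and -0.37 in siDDX1. The sources used here do not say whether the numbers pair libraries. The main fit did not pair them, and a shared replicate structure in siDDX1 was not tested. GENCODE vM1 on NCBIM37, the sequence of mm9, gave the positions, transcript lengths and GC content. Promoter windows came from RefSeq on GRCm38.p6.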

Additional observations from a re-analysis of the deposited data

Results flagged for a closer look

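Nup188, a large inner ring nucleoporin, had all 3 siEXOSC3 libraries below and all 3 siDDX1 libraries above the same siScramble libraries. It held 32.8, 34.8 and 35.2 FPKM in siScramble and 29.9, 28.7 and 32.2 FPKM in siEXOSC3, a log2 fold change of -0.17 (limma adjusted p = 0.0822). In the other table it held 32.6, 34.5 and 34.8 FPKM in siScramble and 41.3, 37.2 and 36.9 FPKM in siDDX1, a log2 fold change of 0.17 (adjusted p = 0.122). Neither passed the threshold with all libraries. Without siEXOSC3 replicate 3 the first did (adjusted p = 0.0350, up to 0.207 in the other alternatives), and without siDDX1 replicate 3 the second did (adjusted p = 0.0452, up to 0.332), and the difference between the knockdowns was not tested.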

How the results depend on the processing

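Under the 7 alternatives other than leaving out a library, 9 to 14 transport genes were decreased in siEXOSC3 and 0 increased, with 9 decreased in the fit with the replicate block. Over those fits 7.63% (no filter) to 18.7% (minimum of 5 FPKM) of all genes were decreased, and 9.42% with the replicate block. Of all genes, 10.8% (no filter) to 17.9% (centring) were increased. Over the fits without 1 library the decreased count was 6 to 23, with 5.18 to 22.3% of all genes decreased. The increased count was 0 to 1, with 9.12 to 21.2% of all genes increased. In siDDX1, 1 was decreased with median centring and 1 without the trend, beside 4.12% and 4.43% of all genes. The replicate block gave 2 increased (Thoc6 and Ipo7) and 2 decreased, beside 9.77% and 7.28% of all genes. Leaving out a library gave 0 to 4 increased and 0 to 6 decreased in siDDX1, with 0.865 to 16.4% and 0.549 to 15.4% of all genes. Without the filter, Nup210l took the place of Nup35 among the 2 decreased in siDDX1. Of the related genes, 5 to 18 were decreased in siEXOSC3 without 1 library, with 5.18 to 22.3% of all genes. In siDDX1, 1 was increased with a minimum of 5 FPKM, with centring and with the replicate block, beside 6.23, 6.73 and 9.77% of all genes. Without 1 library 0 to 1 were increased, beside 0.865 to 16.4%. There, 0 were decreased without the filter and without the trend, beside 1.94% and 4.43% of all genes. With the replicate block 4 were decreased, beside 7.28%, and without 1 library 0 to 6, beside 0.549 to 15.4%. The replicate numbers were not taken to pair libraries in the main fit.

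In siDDX1, the sign turned for Kpna2 (0.0041 with centring, 0.021 without siDDX1 replicate 1), Nup98 (0.0035 with centring, 0.0036 without siScramble replicate 2, 0.050 without siDDX1 replicate 3) and Nup210 (-0.0062 without siScramble replicate 2, -0.033 without siDDX1 replicate 1), none of them called. Over the fits without 1 library their log2 fold changes ran from -0.075 to 0.021, from -0.068 to 0.050 and from -0.033 to 0.060. Of 624 values for 48 single-gene results, 542 kept their direction and side of the threshold, 66 lost the threshold, 9 gained it and these 7 changed sign. The cause was not tested. Fits without a library have fewer samples. Exosc3 and Ddx1 stayed decreased under all 13 alternatives. Absolute depth is unknown, so no counting error is given.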
